A study of Homo sapiens with 24 samples.

Results

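The 6 genes described here, SOX2, SOX3, SOX4, SOX9, SOX11 and SOX12, encode transcription factors of the SOX family. They were taken by gene symbol, with every array probe annotated to them. SOX3 and SOX2 were chosen by the large changes of their normalized levels in these same arrays, so the values of both are given as a description with no test in any comparison, and the other 4 genes were tested. The 6 genes had 8 probes of the 47323 on the array. Of these, 7 passed the filter on detection, which asked for a detection p-value under 0.05 on at least 6 of the 24 arrays, and each of the 7 was detected on all 24. The eighth, the second of 2 SOX11 probes, was detected on 0 of 24 arrays and gives no value. All 6 genes were thus among the 13283 measured.

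RNA came from HEK293, a line of transformed human embryonic kidney cells, grown in medium with fetal bovine serum. Control cells received water and treated cells received 10 µM MOTS-c, a short peptide encoded inside a mitochondrial ribosomal RNA gene, and each kind was harvested after 4 h or 72 h. The 4 groups were therefore control 4 h, MOTS-c 4 h, control 72 h and MOTS-c 72 h, with 6 arrays in each and no genetic change in any. Whether the 6 arrays of a group stand for separate cultures is not stated in the labels, and the p-values then cover the spread among arrays alone, part or all of it possibly technical.

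SOX proteins bind DNA through a high-mobility-group (HMG) box related to that of SRY and bend it, and they act together with partner factors. SOX2 and SOX3 belong, with SOX1, to the SOXB1 subgroup, which maintains neural progenitor cells, and SOX2 is also known for its part in pluripotency. SOX4, SOX11 and SOX12 form the SOXC subgroup, known in neuronal differentiation. SOX9, with SOX8 and SOX10 in the SOXE subgroup, directs cartilage formation and testis development and acts in kidney tubules after injury. HEK293 cells are known to express several genes of the neuronal lineage.

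On the GRCh38.p14 assembly, RefSeq places SOX3 at chrX:140502985-140505069 and SOX2 at chr3:181711925-181714436, the latter inside the noncoding gene SOX2-OT, which spans chr3:181056680-181742228. SOX4 lies at chr6:21593751-21598619, SOX12 at chr20:325552-330224, SOX11 at chr2:5692384-5701385 and SOX9 at chr17:72121020-72126416. The position of each probe within its transcript was not used here. RefSeq's promoter table for that build held 4 of the 6 genes. The 250 bases before the annotated start are shown for SOX3 and SOX2 because the 2 genes differed most between the groups and did so in opposite directions at 72 h. Both are 5′ to 3′ on the gene's strand, and capitals mark a CCAAT box, which reads ATTGG on this strand, and a GC box, which reads GGGCGG or, on the other strand, CCGCCC.
SOX3, chrX:140505070-140505319, minus strand: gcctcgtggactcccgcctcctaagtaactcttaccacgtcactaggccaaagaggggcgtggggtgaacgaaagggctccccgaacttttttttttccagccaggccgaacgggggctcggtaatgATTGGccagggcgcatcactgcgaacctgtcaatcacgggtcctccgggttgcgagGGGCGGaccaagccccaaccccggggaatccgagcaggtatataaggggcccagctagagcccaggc
SOX2, chr3:181711675-181711924, plus strand: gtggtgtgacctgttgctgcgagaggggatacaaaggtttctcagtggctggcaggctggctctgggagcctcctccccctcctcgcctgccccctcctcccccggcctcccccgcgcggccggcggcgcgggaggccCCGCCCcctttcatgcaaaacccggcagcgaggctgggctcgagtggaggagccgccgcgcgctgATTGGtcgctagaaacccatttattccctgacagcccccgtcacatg
Each promoter held 1 CCAAT box, which ends 118 bases before the start in SOX3 and 42 bases before it in SOX2. Each also held 1 GC box, at 61 bases in SOX3 and 106 bases in SOX2. On either strand, CCAAT was present in 32% and GGGCGG in 42.6% of the 35116 promoters of that length in the table, so neither is rare. The exact letters AACAAT, a form of the core that SOX proteins bind, and TATAAA, a form of the TATA box, were not found in either window. Of all promoters 8.98% and 10.7% hold these letters. Other forms of the SOX core and of the TATA box were not searched for, so their absence is not shown. The windows do hold such letters, left unmarked above. TATATAAG, another form of the TATA box, stands near the end of the SOX3 window. TACAAAG, another form of the SOX core, stands near the beginning of the SOX2 window. How many of all promoters hold these forms was not counted. The searched motifs do not overlap each other, and a match is a description of the letters and not a site of binding.

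Levels are log2 values after background correction and quantile normalization of the deposited bead intensities, so each is relative to the other transcripts on its array, and a difference of 1 is a doubling. The mean bead intensity per array ran from 399 to 629 and the number of detected probes from 20719 to 23405. A gene was called at a limma p-value under 0.05 after Benjamini-Hochberg adjustment over all 13283 genes. The neuronal-lineage markers NEFL, NEFM, NEFH and INA were detected on every array, and their summed normalized intensity moved with the groups, from 1363 to 1461 in control 4 h, 1462 to 1609 in MOTS-c 4 h, 2579 to 2942 in control 72 h and 1875 to 2093 in MOTS-c 72 h. Of 6 kidney tubule markers 3 were measured, and PAX8 and SLC12A1 were detected on 0 of 24 arrays. At 72 h, 3 of the 4 neuronal-lineage markers were called lower with MOTS-c and 0 higher, beside 22.9% and 22.1% of all genes. Their part in the SOX results was not tested, and in whole cultures fewer cells of a type and less RNA per cell cannot be told apart.

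SOX3 showed the widest range of the 6 genes across the groups. Its level ran from 8.93 to 9.35 (median 9.10) in control 4 h and from 8.93 to 9.11 (median 9.06) in MOTS-c 4 h. It ran from 10.68 to 11.25 (median 11.11) in control 72 h and from 8.43 to 8.61 (median 8.59) in MOTS-c 72 h. All 6 control arrays at 72 h lay above, and all 6 treated arrays at 72 h below, every array of both 4 h groups, which overlapped each other. The order of the groups was thus control 72 h, the 4 h groups without separation, and MOTS-c 72 h. In the deposited intensities, before any normalization, the medians of SOX3 kept this order. They were 1881 in control 72 h against 376 in MOTS-c 72 h, and 634 and 591 in the control and treated 4 h groups. Single arrays were not fully separated there. The highest MOTS-c 72 h array, at 519, lay above the lowest of control 4 h, at 506, and of MOTS-c 4 h, at 493.

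At 72 h the mean SOX3 level was 8.55 ± 0.070 (SD, n = 6) with MOTS-c and 11.04 ± 0.23 without it. The difference was -2.49 on the log2 scale (SE 0.084), or 5.60-fold, and 6 of the 13283 genes had a larger decrease. In control cells the level was 1.93 (SE 0.084) higher at 72 h than at 4 h, or 3.81-fold. In treated cells it was 0.48 lower at 72 h than at 4 h, or 1.40-fold. Among control cells 33 genes had a larger increase over time than SOX3. At 4 h the difference between treated and control cells was -0.075 (SE 0.084), smaller than the SD of 0.15 among the 4 h controls.

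SOX2 had another order of groups. On the brighter of its 2 probes, which stands for the gene, its level ran from 8.66 to 9.34 (median 9.13) in control 4 h and from 8.81 to 9.27 (median 9.03) in MOTS-c 4 h. It ran from 7.20 to 7.88 (median 7.28) in control 72 h and from 7.64 to 8.44 (median 8.16) in MOTS-c 72 h. Every 72 h array lay below every 4 h array, and the 72 h groups overlapped because replicate 5 of control 72 h, at 7.88, reached the range of the treated arrays. The other 5 controls lay between 7.20 and 7.42, below all 6 treated arrays.

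The SOX2 level was lower at 72 h than at 4 h in both conditions, by less with MOTS-c than without it. In control cells it was 9.09 ± 0.23 (SD, n = 6) at 4 h and 7.38 ± 0.26 at 72 h, a difference of -1.71 (SE 0.13) or 3.27-fold, and 8 genes had a larger decrease over time. In treated cells it was 9.0 ± 0.17 at 4 h and 8.11 ± 0.31 at 72 h, a difference of -0.90 (SE 0.13) or 1.86-fold. Between the 72 h groups SOX2 was thus 0.73 higher with MOTS-c (SE 0.13), or 1.66-fold, and 150 genes had a larger increase. Without replicate 5 of the 72 h controls this difference was 0.83. That array was also the brightest of the 72 h controls, with a mean bead intensity of 597 against 399 to 488 on the others. With array brightness as a covariate, chosen after seeing the data, SOX2 differed by 0.68 at 72 h and by -1.60 over time in control cells. The part of brightness in the SOX2 levels was not tested.

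The second SOX2 probe gave smaller differences in the same directions at 72 h and over time. Its mean level was 8.04 ± 0.18 (SD, n = 6) in control 4 h, 8.08 ± 0.15 in MOTS-c 4 h, 7.22 ± 0.072 in control 72 h and 7.48 ± 0.23 in MOTS-c 72 h. At 72 h it was 0.26 higher with MOTS-c (SE 0.095), and over time it was 0.82 lower in control cells and 0.60 lower in treated cells. These changes over time differed by 0.21 (SE 0.13) on this probe, against 0.82 (SE 0.18) on the brighter one. At 72 h the treated arrays, from 7.11 to 7.71 on this probe, overlapped the controls, from 7.10 to 7.29. The size of the SOX2 difference at 72 h therefore depended on the probe, 0.26 against 0.73. The levels of the probes correlated with r = 0.90 over the 24 arrays, which share the 4 group means, and with r = 0.31 once each group's mean was subtracted. SOX2-OT, the noncoding gene around SOX2, had 1 probe, which was detected on 0 of 24 arrays.

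**Figure D1:**
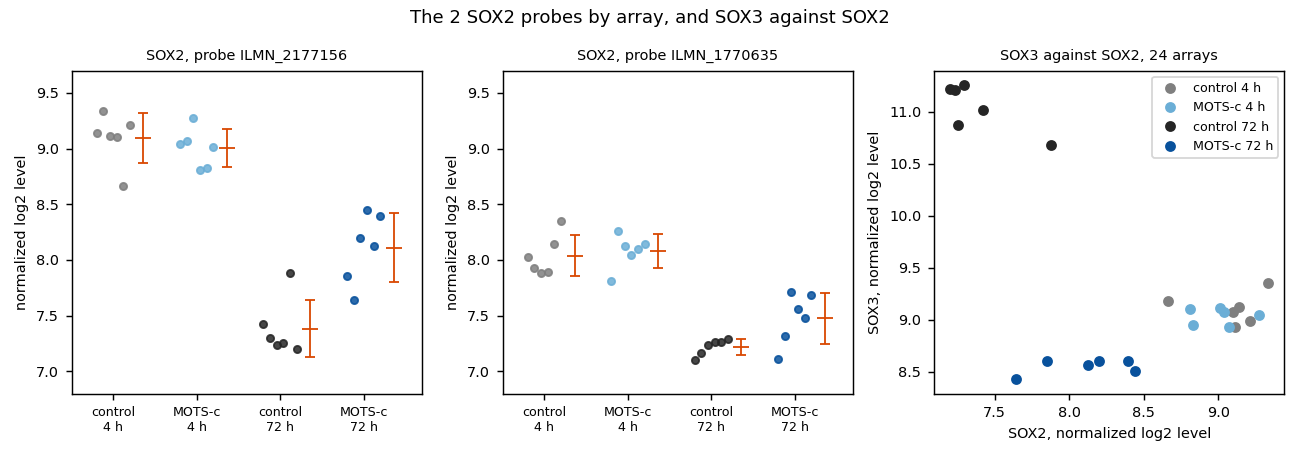
Normalized log2 level of SOX2 on each of its 2 probes for each of the 24 arrays, with the group mean ± SD (orange, n = 6), and, at the right, the level of SOX3 against that of SOX2 (brighter probe), 1 point per array. Both probes are low at 72 h, the treated 72 h arrays lie higher on the first probe, and in the right panel the 72 h controls sit alone at high SOX3 and low SOX2.

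The 2 SOXB1 genes thus did not move as a pair. Over time in control cells SOX3 was higher and SOX2 lower, and in treated cells both were lower. With MOTS-c at 72 h SOX3 was lower and SOX2 higher than in the controls. Their levels correlated with r = -0.66 over the 24 arrays and with r = -0.24 after the group means were subtracted, so the relation lay mostly between the groups. SOX1, the remaining gene of the subgroup, was detected on 0 of 24 arrays.

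The comparison of MOTS-c with control at 72 h asks how the tested SOX genes stood after prolonged exposure. Of SOX4, SOX9, SOX11 and SOX12, 1 of 4 was called, SOX9, which was higher, beside 45.1% of all 13283 genes called in either direction. The treated and control ranges did not overlap for 0 of the 4, beside 22.4% of all genes. These counts do not set the 4 genes apart from the rest. Among all genes 2936 were called higher and 3048 lower, a split that became 2952 and 1737 when arrays were scaled to a common median. The values of each gene are given by subgroup.

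SOX9 was higher with MOTS-c than in control at 72 h. Its level ran from 8.32 to 8.71 (median 8.52) in control 4 h and from 8.38 to 8.86 (median 8.55) in MOTS-c 4 h. It ran from 7.93 to 8.24 (median 8.07) in control 72 h and from 8.19 to 8.72 (median 8.54) in MOTS-c 72 h. The control 72 h arrays lay below all 12 arrays of the 4 h groups, and 1 treated 72 h array, at 8.19, reached the range of the controls. The difference at 72 h was 0.43 (SE 0.092, 95% interval 0.24 to 0.62), or 1.34-fold, with all 6 treated arrays above the control mean and a limma adjusted p of 0.000433.

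Over time SOX9 fell in control cells by 0.43 on the log2 scale, or 1.34-fold (limma adjusted p = 0.000246). In treated cells the difference over time was -0.080 (95% interval -0.27 to 0.11, adjusted p = 0.521), which was not called. The order of the groups was thus MOTS-c 4 h, control 4 h and MOTS-c 72 h without separation, and then control 72 h. The difference between the effects of MOTS-c at 72 h and at 4 h was 0.35 for SOX9 (SE 0.13, limma adjusted p = 0.0405). It was called for SOX9 and for none of the other 3 tested genes, beside 34.0% of all genes, and was near the threshold, since the adjusted p ran from 0.0121 to 0.0756 as single arrays were left out and passed 0.05 in 14 of 24 such fits. The 14 were those without control 4 h replicate 3, 4 or 5, MOTS-c 4 h replicate 2, 3, 5 or 6, control 72 h replicate 1, 2 or 4, or MOTS-c 72 h replicate 2, 4, 5 or 6. Arrays scaled to a common median gave an adjusted p of 0.0821.

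**Figure D2:**
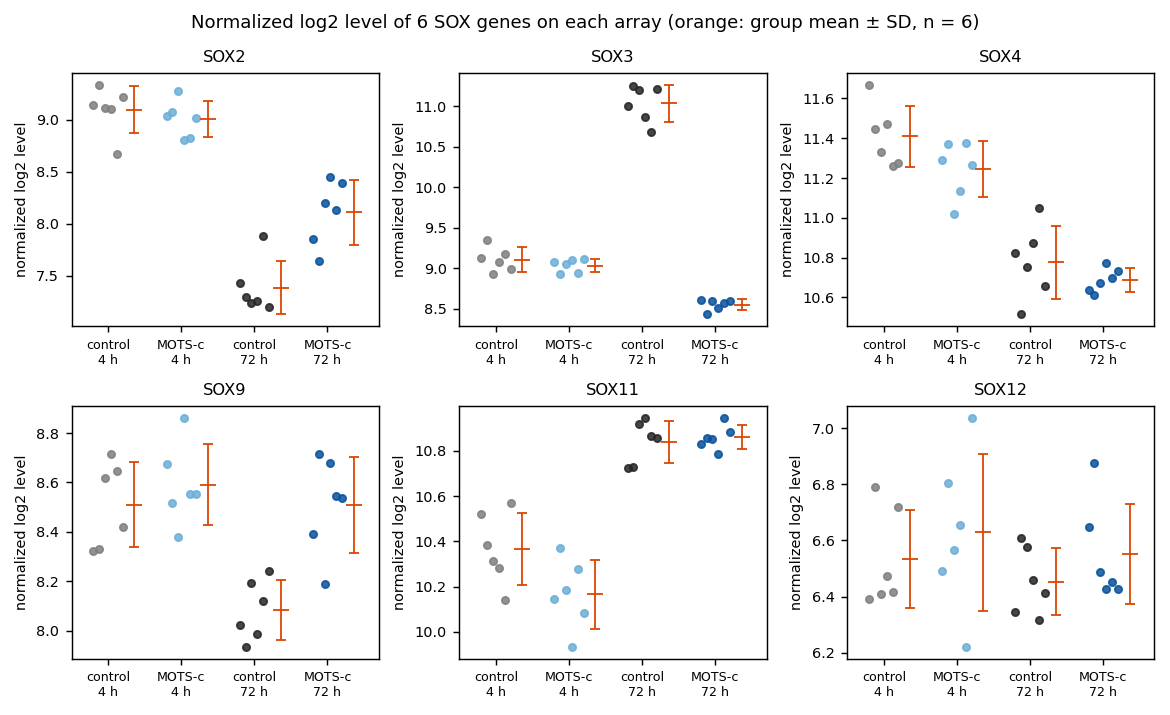
Normalized log2 level of each of the 6 SOX genes (1 panel each, with its own vertical scale) on every array, by group, with the group mean ± SD in orange (n = 6 arrays). SOX3 is highest in control 72 h (10.68 to 11.25), SOX2, SOX4 and SOX9 are lowest at 72 h, with SOX9 low in the controls only, SOX11 is higher at 72 h in both groups, and the 4 groups of SOX12 overlap.

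SOX4 and SOX11, both of the SOXC subgroup, moved in opposite directions over time, whether or not MOTS-c was present. SOX4 ran from 11.26 to 11.67 (median 11.39) in control 4 h, from 11.02 to 11.38 (median 11.28) in MOTS-c 4 h, from 10.52 to 11.05 (median 10.79) in control 72 h and from 10.61 to 10.77 (median 10.69) in MOTS-c 72 h. In each condition the SOX4 arrays at 72 h lay below those at 4 h. SOX4 fell over time by 0.63 on the log2 scale in control cells, or 1.55-fold (limma adjusted p = 2.08e-07), and by 0.56 in treated cells, or 1.47-fold (limma adjusted p = 5.87e-06).

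SOX11 ran from 10.14 to 10.57 (median 10.35) in control 4 h and from 9.93 to 10.37 (median 10.17) in MOTS-c 4 h. It ran from 10.73 to 10.95 (median 10.86) in control 72 h and from 10.79 to 10.95 (median 10.86) in MOTS-c 72 h. All 12 arrays at 72 h lay above all 12 at 4 h. SOX11 rose over time by 0.47 in control cells, or 1.39-fold (limma adjusted p = 3.68e-06), and by 0.70 in treated cells, or 1.62-fold (limma adjusted p = 3.42e-08). The difference between these 2 changes is the same quantity as that between the effects of MOTS-c at the 2 times, 0.22 (SE 0.10, limma adjusted p = 0.10), and it was not called.

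Between treated and control cells at 72 h neither gene was called. The difference was -0.090 for SOX4 (95% interval -0.26 to 0.077, limma adjusted p = 0.391), with the opposite sign, 0.054, under median scaling. For SOX11 it was 0.020 (95% interval -0.13 to 0.17, limma adjusted p = 0.844). The bounds of these intervals are all much smaller than the difference of SOX3. Over the 24 arrays SOX4 and SOX11 correlated with r = -0.72, and after subtraction of the group means with r = 0.40, so their opposition lay between the times and not within groups.

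SOX12, the third SOXC gene, did not pass the test in any comparison. Its level ran from 6.39 to 6.79 (median 6.44) in control 4 h, from 6.22 to 7.04 (median 6.61) in MOTS-c 4 h, from 6.32 to 6.61 (median 6.44) in control 72 h and from 6.43 to 6.88 (median 6.47) in MOTS-c 72 h. All groups overlapped. The difference at 72 h was 0.099 (95% interval -0.12 to 0.32, limma adjusted p = 0.476). Over time it was -0.080 in control cells (limma adjusted p = 0.527) and -0.076 in treated cells (limma adjusted p = 0.602).

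Over time in control cells 3 of the 4 tested genes were called, SOX4 and SOX9 lower and SOX11 higher, beside 62.6% of all genes. In treated cells 2 of 4 were called, SOX4 and SOX11, beside 38.1% of all genes. The levels of the 2 times did not overlap for 3 of 4 genes in control cells, beside 35.6% of all genes, and for 2 of 4 in treated cells, beside 18.8%. The time comparison in control cells and the MOTS-c comparison at 72 h share the control 72 h arrays, so opposite signs in them, as in SOX2, SOX3 and SOX9, are not independent of each other.

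**Figure D3:**
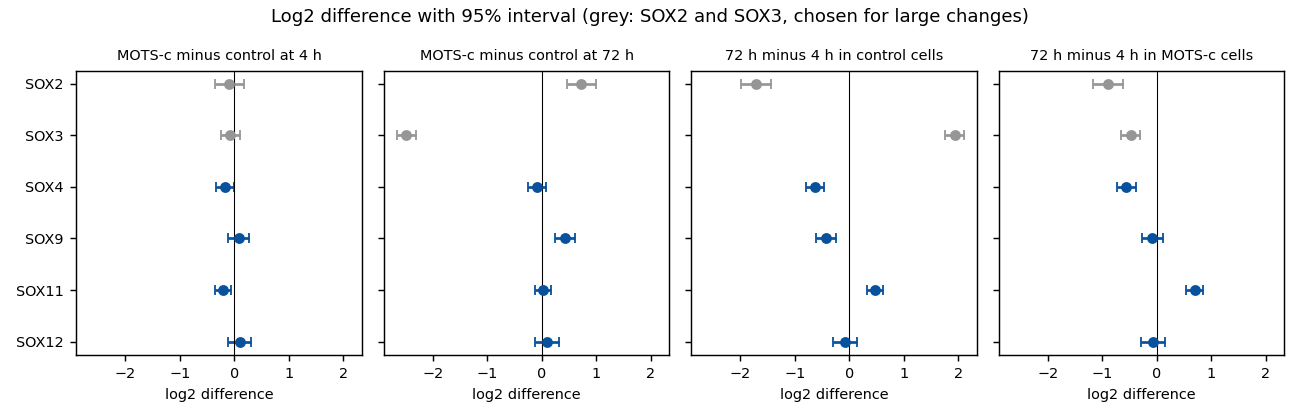
Log2 difference of each of the 6 SOX genes in 4 comparisons, with its 95% interval from the limma fit (n = 6 arrays per group). SOX2 and SOX3, in grey, were chosen for their large changes, so their intervals only describe the spread among arrays and are not a test. At 4 h all differences lie between -0.20 and 0.096, at 72 h SOX3 stands at -2.49 and SOX2 at 0.73, and over time SOX4 lies below and SOX11 above 0 in both conditions.

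At 4 h, early after the peptide was added, 0 of the 4 tested genes were called by limma, beside 0.00753% of all genes, which is 1 gene. At an unadjusted p under 0.05 there was 1 of the 4, SOX11, and 1567 of all genes. SOX11 differed by -0.20 (95% interval -0.35 to -0.052, limma adjusted p = 0.296), with 5 of 6 treated arrays below the control mean. SOX4 differed by -0.17 (95% interval -0.33 to 0.0017, limma adjusted p = 0.428), with 6 of 6 below. For SOX9 the difference was 0.080 (limma adjusted p = 0.780) and for SOX12 it was 0.096 (limma adjusted p = 0.772). The treated and control ranges overlapped for all 6 genes, SOX2 and SOX3 included, beside 0.542% of all genes without overlap.

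**Figure D4:**
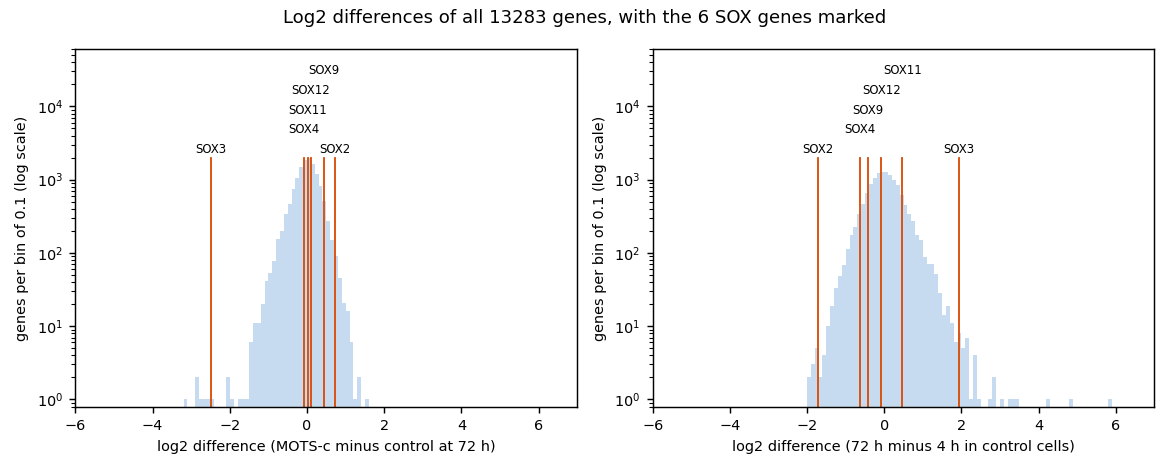
Number of genes (log scale) per bin of 0.1 in log2 difference for all 13283 genes, with MOTS-c against control at 72 h on the left and 72 h against 4 h in control cells on the right, and orange lines at the 6 SOX genes. SOX3 lies in the far left tail at 72 h, SOX2 and SOX3 lie in opposite tails over time, and SOX4, SOX9, SOX11 and SOX12 lie in the body of both distributions.

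The remaining SOX genes called at 72 h were all lower with MOTS-c, while SOX9, described above, was called higher. Of 14 listed, all with a probe, 8 were measured. With MOTS-c at 72 h 4 were called lower than control, 0 higher and 4 were not called, beside 22.9% of all genes called lower and 22.1% called higher. The share called in either direction was near the 45.1% of all genes. Of the genes not called, SRY was detected on 2 of 6 treated and 1 of 6 control arrays at 72 h, and SOX30 on 3 and 5. Both lay near the limit of detection and still enter the counts and the median. The median difference of the 8 was -0.19 against 0.0062 over all genes. SOX8, the SOXE relative of SOX9, ran from 8.99 to 9.57 (median 9.37) in control 72 h and from 8.33 to 8.63 (median 8.59) in MOTS-c 72 h, without overlap. With MOTS-c it was lower by 0.78 on the log2 scale (SE 0.086, limma adjusted p = 3.97e-08), and over time in control cells it rose by 1.20 (limma adjusted p = 4.36e-12). At both comparisons SOX8 and SOX9 thus moved in opposite directions, although the difference between the genes was not tested. SOX10, the third SOXE gene, was detected on 0 of 24 arrays.

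In the SOXF subgroup, known in blood and lymph vessels, SOX18 was lower with MOTS-c at 72 h by 0.36 (limma adjusted p = 0.000289), a call lost under median scaling (adjusted p = 0.0592). SOX7 was lower by 0.40 (limma adjusted p = 0.00134), and its second probe differed by -0.21. SOX17 was detected on 0 arrays. Of 4 endothelial markers, VWF was the 1 measured, and it was called lower at 72 h, with detection on 6 control and 0 treated arrays. The summed normalized intensity of the measured endothelial list was 40.001 to 62.304 in control 72 h and 30.850 to 35.156 in MOTS-c 72 h, while PECAM1 and CDH5 were detected on 0 of 24 arrays. At 72 h 1 of 2 measured leukocyte markers (CD14) and 1 of 4 fibroblast markers (COL3A1) were also called lower and none of either higher. Other lists did not go lower. Of the 3 measured kidney tubule markers 1 was called higher and 0 lower. Neither the 4 measured keratinocyte and carcinoma markers nor the 2 measured hepatocyte markers held a call. The part of these markers in the SOX results was not tested. SOX15, the only gene of its subgroup, was lower with MOTS-c at 72 h by 0.25 (limma adjusted p = 0.0306) and was detected on 1 of the 6 treated arrays. It lost the call under median scaling (adjusted p = 0.0704) and with an offset of 50 (adjusted p = 0.0613). Without control 72 h replicate 2 or 4, or MOTS-c 72 h replicate 1 or 6, the limma adjusted p for SOX15 was 0.0710 to 0.0797. SOX21 and SOX13 differed by 0.17 and -0.051 and were not called. SOX5 and SOX14 were also detected on 0 arrays, and SOX6 on too few to be kept.

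Among 11 factors listed as partners of SOX2, 5 were measured, and PAX6, a regulator of eye and forebrain development that binds DNA together with SOX2, was the 1 called at 72 h, beside 45.1% of all genes. PAX6 ran from 7.18 to 7.77 (median 7.41) in control 72 h and from 7.61 to 8.05 (median 7.82) in MOTS-c 72 h. With MOTS-c it was higher by 0.38 (SE 0.10, limma adjusted p = 0.00299), and its second probe gave 0.42. Over time in control cells PAX6 fell by 0.49 (limma adjusted p = 0.000138). SOX2 had the same signs, and in both genes the 2 comparisons share the control 72 h arrays. For PAX6 the difference between the effects of MOTS-c at 72 h and at 4 h was 0.34 (limma adjusted p = 0.0642), which was not called. The pluripotency factor NANOG was detected on 0 of 24 arrays.

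Of the neural progenitor genes, 9 of 12 were measured. At 72 h 3 were called higher and 1 lower with MOTS-c, with a median difference of 0.028, a share of calls near the 45.1% of all genes. The stem cell surface protein PROM1 was higher by 0.38 (limma adjusted p = 0.00267), the RNA-binding protein MSI1 by 0.26 (limma adjusted p = 0.0107) and the intermediate filament VIM by 0.21 (limma adjusted p = 0.00269), the last a call lost with the deposited Z scores (adjusted p = 0.499). The receptor NOTCH1 was lower by 0.59 (SE 0.11, limma adjusted p = 7.23e-05). Over time in control cells 4 of the 9 fell and 0 rose, beside 30.7% of all genes called lower and 31.9% called higher.

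Of 7 neuronal genes listed for the SOXC subgroup, 4 were measured and 1 was called at 72 h, beside 45.1% of all genes. It was the tubulin TUBB3, which was lower with MOTS-c by 0.24 (limma adjusted p = 0.0159), a call lost under median scaling (adjusted p = 0.353). Of 12 cartilage genes listed for SOX9, 7 were measured. At 72 h 2 were called lower and 0 higher with MOTS-c, beside 22.9% of all genes called lower and 22.1% called higher, with a median difference of -0.099. The 2 calls do not set this list apart. The collagen chain COL9A2 was lower by 0.71 (SE 0.091, limma adjusted p = 4.70e-07), with a mean of 5.75 in MOTS-c 72 h against 6.46 in control 72 h. The matrix protein MATN3 was lower by 0.24 (limma adjusted p = 0.0203), a call lost under median scaling (adjusted p = 0.194), with the Z scores (0.0885) and without control 72 h replicate 5 (0.0534).

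In the TCF and LEF genes with beta-catenin, whose products carry related HMG boxes or act with them in WNT signalling, 1 of 5 measured was called at 72 h, beside 45.1% of all genes. It was LEF1, higher by 0.23 (limma adjusted p = 0.0225). Without control 72 h replicate 1 or 2, or MOTS-c 72 h replicate 2 or 3, the limma adjusted p for LEF1 was 0.0518 to 0.0787. Of 13 other HMG-box genes, all measured, 6 were called higher and 2 lower with MOTS-c at 72 h, beside 22.1% of all genes called higher and 22.9% called lower, with a median difference of 0.19. Over time in control cells 1 rose and 5 fell, beside 31.9% and 30.7% of all genes. With MOTS-c at 72 h the chromatin protein HMGB1 was higher by 0.66 (SE 0.11, limma adjusted p = 3.06e-05), with 0.60 on its second probe, and HMGB3 by 0.38 (limma adjusted p = 9.90e-05). TOX3 was higher by 0.39 (limma adjusted p = 0.00240). UBTF, a factor of RNA polymerase I, was lower by 0.47 (limma adjusted p = 0.000403) on the probe that stands for it. It differed by 0.15, in the other direction, on its second probe, and the mean of both was not called (limma adjusted p = 0.0579).

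**Figure D5:**
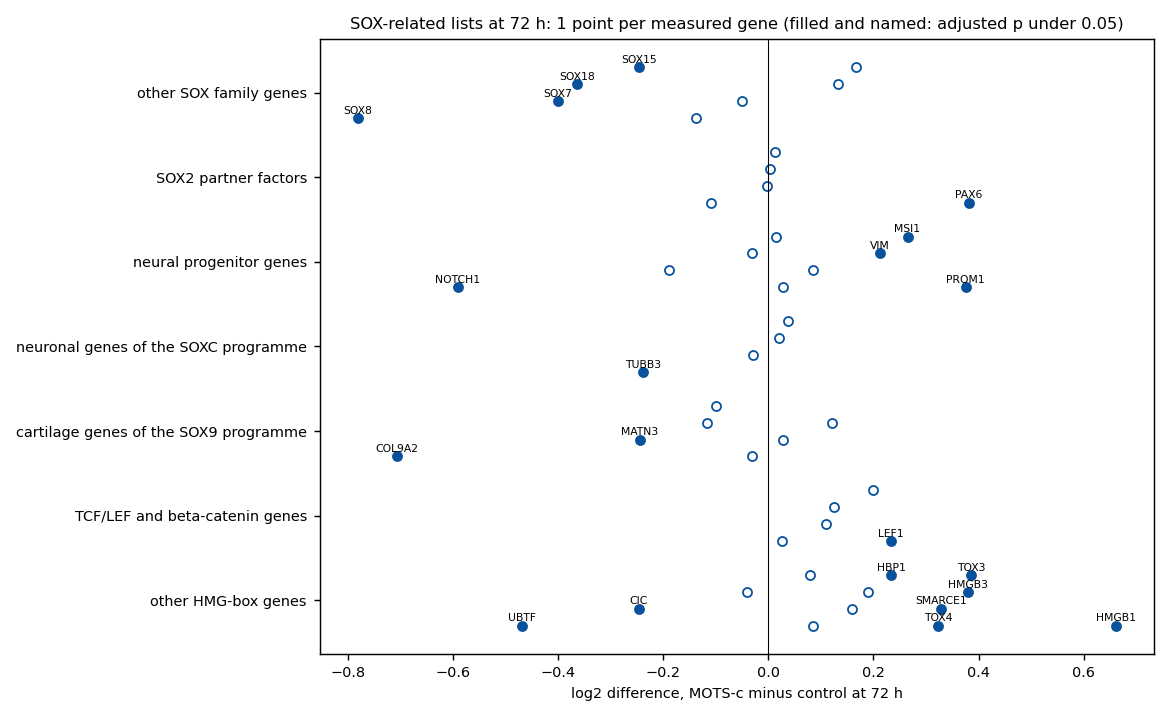
Log2 difference between MOTS-c and control at 72 h for each measured gene of 7 lists related to the SOX genes, 1 point per gene, filled and named where the limma adjusted p was under 0.05 (vertical position within a list only separates the points). In the list of other SOX genes the 4 filled points are all below 0, and in that of other HMG-box genes 6 of 8 are above it.

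The genes whose levels ran most like that of SOX3 over the 24 arrays were DENND1A (Pearson r = 0.986), GPR162 (0.980), MYC (0.976), PARD6A (0.974) and CD2BP2 (0.972). The 24 points share the 4 group means, and with those subtracted the correlations were 0.56, 0.65, 0.28, 0.58 and 0.51. DENND1A, a guanine nucleotide exchange factor for the small GTPase RAB35, came closest to SOX3 in size too, with a difference of -2.50 at 72 h and of 2.14 over time in control cells. The other 4 differed at 72 h by -0.85 to -1.14.

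For SOX2 the 5 genes were CENPA (Pearson r = 0.965), MSMO1 (0.965), FBXO33 (0.963), TMEM47 (0.963) and RECK (0.962), with correlations of 0.52 to 0.68 after the group means were subtracted. MSMO1, an enzyme of cholesterol synthesis, was 1.62 lower at 72 h than at 4 h in control cells and 0.64 higher with MOTS-c at 72 h, close to the values of SOX2. RECK, a membrane protein that inhibits matrix metalloproteinases, was 1.48 lower over time and 0.60 higher with MOTS-c. None of the genes in these lists was a SOX gene.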

How the data were processed

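Levels were measured in 24 HEK293 samples on Illumina bead arrays, 6 per group, with groups from the labels. The deposited table, read with GenomeStudio 2011.1 per the submitters' processing notes, gives mean bead intensity per probe, neither background-subtracted nor scaled between arrays, and a detection p-value. A second deposited table gives a Z score per probe and array, used as an alternative.

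In R 4.3.3 with limma 3.58.1, neqc (background inferred from detection p-values, offset 16, quantile normalization) gave log2 levels. Probes with detection p under 0.05 on at least 6 of 24 arrays were kept (23931). Of these, 17873 mapped to 1 gene, and the brightest probe stood for a gene. One linear model over 4 group means (20 residual degrees of freedom, prior 6.43) gave two-sided tests, adjusted over 13283 genes. Precision is limited by the number of arrays, which hold no counts. The model was tested on simulated data.

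The 6 genes and all lists were chosen with earlier results of these data known. From each list at most the 4 genes with the smallest p at 72 h were named, with further list members to show what was undetected or not called, and for SOX2 and SOX3 the 5 genes with the highest correlation. Same-numbered arrays showed no shared deviation between treated and control groups (r from -0.23 to 0.093 at 4 h and -0.15 to 0.16 at 72 h). Nor did they between the times (r from -0.26 to 0.20 in control and -0.28 to 0.13 in treated groups), so the fit used no pairing. Python 3.11.15 with matplotlib 3.10.9 drew the figures. Slide positions and scan batches were not used here.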

Additional observations from a re-analysis of the deposited data

Results flagged for a closer look

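In 5 of 95 combinations of a gene and a group of 6 arrays in which it was detected, 1 array stood apart from the rest by Dixon's ratio (its gap to the nearest array over the whole range, above the 95% critical value), and chance alone gives about 1 in 20. Among the 6 SOX genes this concerned SOX2. In control 4 h replicate 5 was at 8.66 against 9.10 to 9.34 on the others (ratio 0.651), and in control 72 h replicate 5 was at 7.88 against 7.20 to 7.42 (ratio 0.671). The ratio was 0.655 for SOX8 in MOTS-c 72 h, 0.674 for MATN3 in MOTS-c 4 h, and 0.668 for UBTF in control 4 h.

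The effect of MOTS-c differed between 72 h and 4 h by the interaction test in limma for SOX9, by 0.347 on the log2 scale. Among the genes named from the lists it differed by -0.894 for SOX8, -0.446 for NOTCH1, 0.483 for PROM1, 0.287 for VIM, -0.463 for MATN3, 0.899 for HMGB1, 0.292 for HMGB3, -0.609 for UBTF and 0.411 for TOX3. These genes were named for their small p at 72 h, and the same 72 h arrays enter this test, so their calls were favoured in advance. Over all genes 34.0% were called in it. The second UBTF probe went the other way at 72 h, by 0.15. COL9A2 was detected on 0 of 6 arrays of MOTS-c 4 h and 1 of 6 of control 4 h, so no size of the difference between 72 h and 4 h is given for it.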

How the results depend on the processing

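The number of the 4 tested SOX genes called was the same under every alternative run for MOTS-c at 4 h (0), MOTS-c at 72 h (1), time in control cells (3) and time in treated cells (2). For the difference of the MOTS-c effect between the times it was 1, and 0 under median scaling, with the deposited Z scores, without a detection filter, with array weights and at an adjusted p under 0.01, and it ran from 0 to 1 as single arrays were left out. With the replicate block SOX9 kept its call there (limma adjusted p = 0.0427), and the block changed no call of the tested SOX genes. For SOX11 it was called in 2 such fits, without control 4 h replicate 5 (0.27, limma adjusted p = 0.0405) and without MOTS-c 4 h replicate 2 (0.26, adjusted p = 0.0480). Leaving out replicate 5 of both control groups, chosen after seeing the data, gave SOX9 an adjusted p of 0.0652 and SOX11 one of 0.0385. Differences that changed sign were not called in either form. SOX4 at 72 h was 0.054 under median scaling. The SOX12 difference of effects was -0.000373 without background correction, -9.13e-05 with an offset of 50, -0.0246 with Z scores, -0.038 with array weights and -0.00043 without replicate 5 of both control groups, and -0.078 to 0.085 with single arrays left out. Over the same fits SOX11 at 72 h ran from -0.0027 to 0.041 and SOX12 over time in treated cells from -0.16 to 0.0054. The mean of its probes gave SOX2 differences of 0.49 at 72 h, -1.26 over time in control cells and 0.51 for the difference of effects. SOX3 at 72 h ran from -2.56 to -2.37 under all alternatives, among them array brightness as a covariate, also chosen after seeing the data (-2.46). Median scaling moved the split of higher and lower calls over all genes to 1874 and 1144 in the difference of effects, from 2217 and 2305, and to 2451 and 1091 over time in treated cells, from 2645 and 2422. The cause was not tested.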
